A study of Mus musculus with 8 samples.

Results

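The 10 genes described here encode the MHC class II molecules of the mouse and the proteins that assemble, load and induce them. They were taken as a named list (H2-Aa, H2-Ab1, H2-Eb1, Cd74, Ciita, H2-DMa, H2-DMb1, H2-DMb2, H2-Oa and H2-Ob), and all 10 were found by symbol among the 27179 Entrez Gene identifiers of the count table. RNA was sequenced from bone marrow cells sorted by flow cytometry, with 2 biological replicates in each of 4 groups, a total of 8 libraries. Pre-proB, proB and preB cells came from Erg fl/fl mice, which carry loxP-flanked Erg alleles but no Rag1Cre allele and served as controls. A second set of pre-proB cells came from Rag1Cre T/+;Erg Δ/Δ mice, called Erg-deficient here, in which Cre expressed from the Rag1 locus deletes Erg in lymphoid progenitors. The mice were 7 to 10 weeks old. The control and Erg-deficient genotypes therefore differ in the Cre allele as well as in Erg. All of the sorted cells were B220+ and negative for IgM, IgD, NK1.1 and CD11c, with stages separated by CD43 and CD24. The study's methods describe populations sorted from 2 mice of each genotype, so the control stages may come from the same mice. Which mouse gave which library is not stated, and the main fits treated the libraries as independent.

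MHC class II molecules are pairs of an alpha and a beta chain that display peptides from endosomes to CD4+ T cells. New pairs are held by the invariant chain, Cd74, until H2-DM in the endosome exchanges its remnant for a peptide, and H2-O acts as an inhibitor of H2-DM. Transcription of H2-Aa, H2-Ab1, H2-Eb1 and Cd74 in B cells, dendritic cells and macrophages depends on the co-activator Ciita. RFX, CREB and NF-Y factors bound to the X and Y boxes of these promoters recruit Ciita. Whether each of the other members, H2-Ob among them, depends on Ciita was not tested here.

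On mouse chromosome 17 (GRCm38) lie 8 of the 10 genes, from H2-Oa at 34092379-34095234 to H2-Eb1 at 34305867-34316674. Ciita and Cd74 lie elsewhere. RefSeq promoter windows (GRCm38.p6, 250 bases before to 50 bases after the transcript start) were at hand for 7 members, and none was for H2-Ab1, Cd74 and Ciita. The core letters of the Y box (ATTGG, both strands searched) stood within 100 bases upstream on the gene's own strand in 6 of the 7. Of all 32851 windows, 10.6% held these letters in that place, and 37.4% anywhere on either strand. The exception among the members was H2-DMa, with the Y core at position -198. Its window (34125268-34125567) lies inside the gene's annotated span of 34119693-34139101, and other possible starts in that span were not searched. The X1 core letters (AG, 2 bases of any kind, AC, 3 bases of any kind, TG) followed by the Y core 25 to 40 bases further along the same strand were present in H2-Eb1, H2-Ob and H2-DMb1, and in 0.225% of all windows. This spacing range was chosen after the sequences had been seen. The X2 core letters (TGACG) were found in 1 member window, H2-Aa, at positions -74 and, on the opposite strand and overlapping, -71, and in 20.8% of all windows. Printed below are 60-base stretches around the Y core, 5′ to 3′ on the gene's strand, with X1 and Y cores in capitals. H2-Eb1 and H2-Ob are shown because they share both cores while their RNA levels moved in opposite directions from pre-proB to proB cells, H2-Oa because its product pairs with that of H2-Ob, and H2-DMb1 and H2-DMb2 because they are near-copies whose ratio changed over the stages.
H2-Eb1 (chr17:34305763-34305822, + strand): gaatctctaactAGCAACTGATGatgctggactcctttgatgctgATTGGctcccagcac
H2-Ob (chr17:34238803-34238862, + strand): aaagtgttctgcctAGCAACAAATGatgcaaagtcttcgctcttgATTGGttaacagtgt
H2-Oa (chr17:34092291-34092350, + strand): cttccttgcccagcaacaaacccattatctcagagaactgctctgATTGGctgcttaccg
H2-DMb1 (chr17:34153085-34153144, + strand): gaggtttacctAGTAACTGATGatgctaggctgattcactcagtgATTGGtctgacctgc
H2-DMb2 (chr17:34145114-34145173, + strand): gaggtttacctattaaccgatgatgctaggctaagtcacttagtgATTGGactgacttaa
The X1 and Y cores began 33 bases apart in H2-Eb1, 31 in H2-Ob and 34 in H2-DMb1. In H2-DMb2 the Y core was present at position -90 and the X1 letters were not in the window. A match of letters describes the sequence and says nothing of a factor bound there.

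Library totals ran from 15565381 to 18457632 counts. Levels are given as CPM, counts scaled to a common library total with TMM factors, and, where genes are compared with each other, as FPKM, which also divides by exon length. Erg stood at 69.8 and 25.1 CPM in the control pre-proB libraries and at 2.49 and 2.58 CPM in the Erg-deficient ones. The control pre-proB libraries differed from each other in B-lineage RNA: the summed level of 8 B-lineage markers was 1216 CPM in replicate 1 and 441 CPM in replicate 2, against 3873 to 4067 CPM in proB, 5711 to 6124 CPM in preB and 23.0 to 27.2 CPM in Erg-deficient pre-proB cells. RNA of plasmacytoid dendritic cells, which also carry B220, was high in all 4 pre-proB libraries. Its 5 defining markers (Siglech, Klk1, Cox6a2, Pacsin1 and Ccr9) summed to 5959 to 6097 CPM in control pre-proB, 6604 to 6979 CPM in Erg-deficient pre-proB, 77.0 to 95.3 CPM in proB and 24.0 to 26.8 CPM in preB cells. In bulk RNA, fewer cells of a type and less RNA per cell cannot be told apart.

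The class II genes were abundant in pre-proB cells, fell steeply in proB cells and rose a little in preB cells, with H2-Ob as the exception. The 10 genes together took 0.455% and 0.498% of all counts in control pre-proB cells, 0.0594% and 0.0649% in proB cells and 0.105% and 0.115% in preB cells. In Erg-deficient pre-proB cells they took 0.704% and 0.60%. Between proB and pre-proB cells all 10 were past an adjusted p of 0.05 (edgeR's quasi-likelihood test, Benjamini-Hochberg adjustment over all genes tested), 9 of them lower and H2-Ob higher. In that comparison 73.0% of the 13650 genes tested were called, 36.8% lower and 36.2% higher. The median log2 fold change was -3.12 over the members and 0.00 over all genes. From proB to preB cells 9 members rose, where 58.9% of all genes were called and 29.0% rose, and H2-DMa was not called, with medians of 0.59 for the members and 0.00 for all genes. Between preB and pre-proB cells 8 members were lower, H2-Ob was higher, and H2-DMb2 was not called. Of all genes 70.7% were called there, 34.1% lower and 36.5% higher, and the medians were -2.32 for the members and 0.04 for all genes. The 3 stage comparisons reuse the same 6 libraries.

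**Figure D1:**
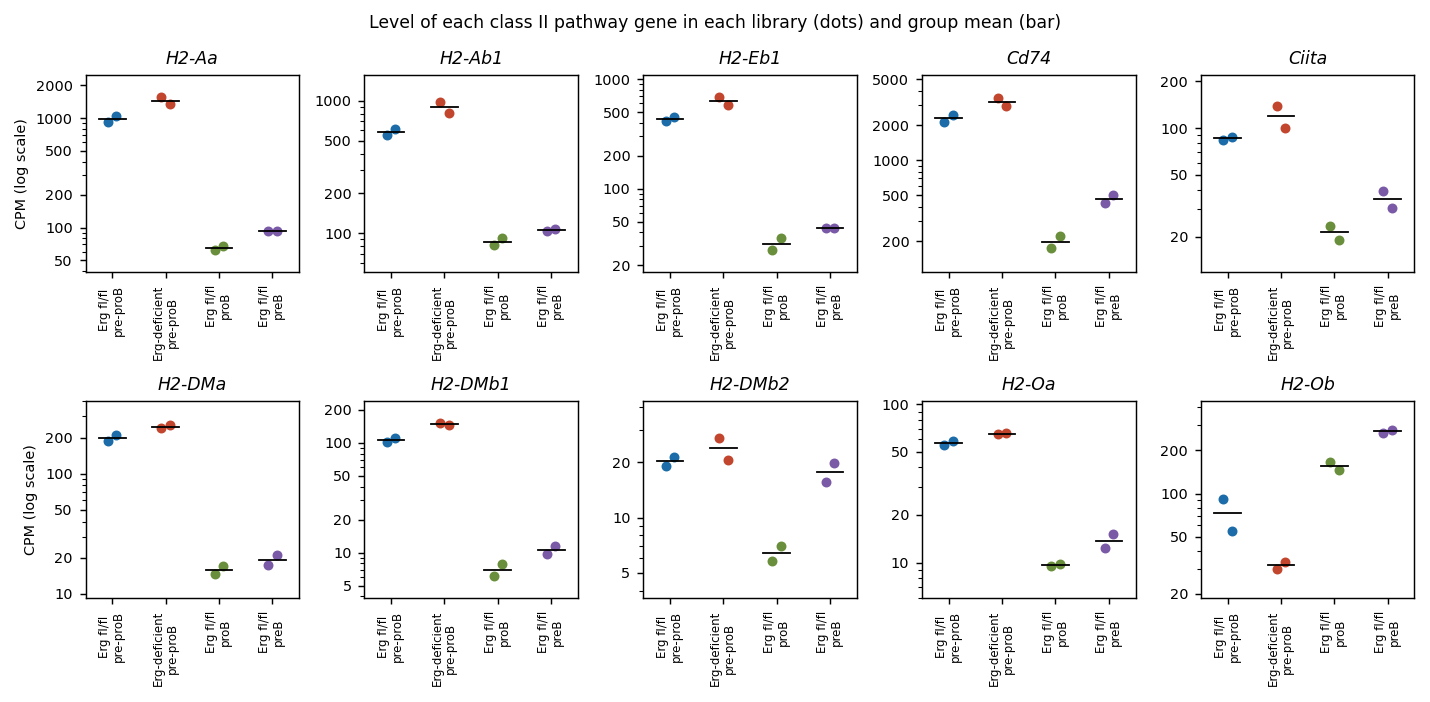
Level of each of the 10 genes in CPM on a log scale, with 1 dot per library and a bar at the mean of the 2 libraries of each group. In 9 panels both pre-proB groups stand above proB cells, while H2-Ob has its lowest dots in Erg-deficient pre-proB cells (29.9 and 33.4 CPM) and its highest in preB cells (266 and 277 CPM).

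H2-Aa and H2-Ab1 encode the alpha and beta chains of the I-A molecule and H2-Eb1 the beta chain of I-E. RNA of H2-Ea, the alpha chain gene of I-E, listed as a transcribed pseudogene, stayed at or below 0.311 CPM. H2-Eb1 RNA therefore cannot be read as I-E protein, which was not measured. H2-Aa was measured at 928 and 1036 CPM in control pre-proB, 62.9 and 68.0 CPM in proB and 92.0 and 92.4 CPM in preB cells. No library of one stage overlapped another stage. H2-Aa fell 14.8-fold from pre-proB to proB (log2 fold change -3.89, SE 0.0922, adjusted p = 7.71e-09) and rose 1.45-fold from proB to preB (adjusted p = 0.000938). H2-Ab1 read 554 and 616 CPM in control pre-proB, 81.9 and 91.6 CPM in proB and 105 and 108 CPM in preB cells. It fell 6.67-fold from pre-proB to proB (log2 -2.74, SE 0.0894, adjusted p = 3.14e-08). The ratio of H2-Aa to H2-Ab1 in FPKM was 1.80 and 1.81 in control pre-proB cells, 0.825 and 0.798 in proB libraries and 0.938 and 0.922 in preB libraries. The alpha chain read higher in pre-proB cells and the beta chain slightly higher afterwards. That order in proB and preB cells depends on the exon lengths used, while the shift between stages does not. With 2 libraries against 2, an exact permutation test of such a ratio cannot give a p below 0.333, and none is given. H2-Eb1 fell from 412 and 451 CPM to 27.9 and 35.4 CPM, a 13.4-fold change (adjusted p = 2.11e-08), and read 44.2 CPM in both preB libraries.

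Cd74, the invariant chain (chromosome 18, 60803849-60812652), had the highest mean FPKM of the 10 in all 4 groups. It was measured at 2151 and 2442 CPM in control pre-proB, 175 and 224 CPM in proB and 429 and 504 CPM in preB cells, which made it the 15th gene by CPM of 17165 with a count in control pre-proB cells, the 1026th in proB and the 312th in preB cells. The fall to proB was 11.4-fold (log2 -3.51, SE 0.147, adjusted p = 1.23e-07). Cd74 rose 2.4-fold from proB to preB (log2 1.26, SE 0.136, adjusted p = 0.000101), beside log2 changes of 0.33 to 0.53 for H2-Aa, H2-Ab1 and H2-Eb1. The FPKM ratio of Cd74 to H2-Aa rose with stage, from 1.85 and 1.88 in control pre-proB to 2.22 and 2.62 in proB libraries and 3.71 and 4.34 in preB libraries.

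Ciita (chromosome 16, 10480014-10531064), the co-activator, fell from pre-proB to proB by less than the other falling members except H2-DMb2. It read 83.8 and 87.8 CPM in control pre-proB, 23.6 and 19.0 CPM in proB and 39.1 and 30.5 CPM in preB cells, with no overlap between stages. The fall to proB was 3.98-fold (log2 -1.99, SE 0.134, adjusted p = 1.97e-06) and the rise to preB 1.68-fold (log2 0.75, SE 0.138, adjusted p = 0.00189). Of the DNA-binding factors and co-activators that act with Ciita, a list of 10, 5 were higher and 3 lower in proB than in pre-proB cells, with a median log2 fold change of 0.17. Rfx5, the DNA-contacting subunit of the RFX complex, rose by 0.25 on the log2 scale (adjusted p = 0.0114), whereas Rfxank, another RFX subunit, fell from 35.4 and 36.8 CPM to 22.0 and 19.1 CPM (log2 -0.80, adjusted p = 0.00014). Nfyb, a subunit of the Y box factor NF-Y, rose from 52.0 and 53.2 CPM to 108 and 112 CPM (log2 1.08, adjusted p = 6.03e-07). From proB to preB cells 7 of the 10 rose, Rfxank among them (36.8 and 32.1 CPM in preB cells), and in Erg-deficient against control pre-proB cells 0 of the 10 were called by edgeR, DESeq2 or limma-voom, with 0 at an unadjusted p below 0.05.

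Of 14 transcription factors known to act on Ciita or in the cells that express it, 8 were higher and 5 lower in proB than in pre-proB cells. Irf8, a factor of dendritic cells and B cells, stood at 3479 and 3950.2 CPM in control pre-proB and 197 and 213 CPM in proB cells (log2 -4.16, adjusted p = 9.72e-09). Irf1, an interferon regulatory factor, fell by 1.66 on the log2 scale (adjusted p = 3.35e-06). Spi1, which binds myeloid and B-cell promoters, read 47.9 and 53.9 CPM against 55.1 and 54.5 CPM (log2 0.12, adjusted p = 0.20). The factors of B-cell commitment went the other way, with Pax5 at 27.1 and 7.72 CPM in control pre-proB and 173 and 171 CPM in proB cells (log2 3.34, adjusted p = 4.05e-05). In Erg-deficient against control pre-proB cells 3 of the 14 were called, all lower: Ebf1, Pax5 and Bach2. DESeq2 called 6 of the 14 and limma-voom 0, with 6 at an unadjusted p below 0.05.

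H2-DM, the peptide editor, is made of an alpha chain from H2-DMa and a beta chain from H2-DMb1 or H2-DMb2. H2-DMa read 188 and 209 CPM in control pre-proB and 14.7 and 16.9 CPM in proB cells, a 12.4-fold fall (adjusted p = 2.53e-08). In preB cells it read 17.3 and 21.1 CPM (log2 0.31 against proB, SE 0.126, adjusted p = 0.0594), so that it had the smallest change of the 10 in that step together with H2-Ab1. H2-DMb1 fell from 101 and 111 CPM to 6.16 and 7.85 CPM (log2 -3.90, SE 0.126, adjusted p = 2.93e-08), and read 9.77 and 11.4 CPM in preB cells. H2-DMb2 read 19.2 and 21.5 CPM in control pre-proB, 5.83 and 7.01 CPM in proB and 15.7 and 19.8 CPM in preB cells, and the pre-proB and preB libraries overlapped. The fall of H2-DMb2 was 3.13-fold (log2 -1.65, SE 0.162, adjusted p = 2.16e-05) and its rise 2.83-fold (log2 1.5, SE 0.162, adjusted p = 9.94e-05), which left preB cells at -0.14 on the log2 scale from pre-proB cells (SE 0.148, adjusted p = 0.414). The FPKM ratio of H2-DMb2 to H2-DMb1 was 0.187 and 0.191 in control pre-proB, 0.933 and 0.881 in proB libraries and 1.58 and 1.72 in preB libraries. Of the 50-base stretches in H2-DMb1 transcripts, 22.7% also occur in H2-DMb2, and how reads that fit both were counted is not given, so the split between these genes is uncertain.

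H2-Oa and H2-Ob encode the alpha and beta chains of H2-O, and their RNAs moved in opposite directions from pre-proB to proB cells, while both rose from proB to preB cells. H2-Oa read 55.5 and 58.9 CPM in control pre-proB, 9.52 and 9.78 CPM in proB and 12.3 and 15.2 CPM in preB cells, a 5.85-fold fall (log2 -2.55, SE 0.114, adjusted p = 1.85e-07) followed by a 1.46-fold rise (adjusted p = 0.00505). H2-Ob read 91.9 and 54.8 CPM in control pre-proB, 165 and 147 CPM in proB and 266 and 277 CPM in preB cells. Its stages did not overlap, and it rose 2.16-fold from pre-proB to proB (log2 1.11, SE 0.184, adjusted p = 0.000574) and 1.78-fold from proB to preB (log2 0.83, SE 0.176, adjusted p = 0.00368). From pre-proB to preB cells the rise was 3.86-fold (adjusted p = 1.93e-05). The rise to proB was 1.46 on the log2 scale without control pre-proB replicate 1 and 0.77 without replicate 2.

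The ratios of the H2-O chains to each other and to the H2-DM chains differed between stages. The FPKM ratio of H2-Ob to H2-Oa was 0.674 and 0.379 in control pre-proB, 7.08 and 6.13 in proB libraries and 8.82 and 7.40 in preB libraries. By FPKM the less abundant chain was thus H2-Ob in control pre-proB cells and H2-Oa in proB and preB cells. The order in control pre-proB cells depends on the exon lengths used (2670 bases for H2-Ob, 1088 for H2-Oa). By CPM, H2-Ob read 91.9 and 54.8 there against 55.5 and 58.9 for H2-Oa. The order in proB and preB cells was the same by CPM, and the shift between stages does not depend on exon length. The ratio of the alpha chains, H2-DMa to H2-Oa, was 2.22 and 2.32 in control pre-proB, 1.01 and 1.14 in proB libraries and 0.923 and 0.907 in preB libraries. Of the 50-base stretches in H2-Oa transcripts, 15.5% also occur in BC051537 on either strand, and 8.43% of those in H2-DMa occur in Brd2. How reads that fit both genes were counted is not given, so ratios with H2-Oa or H2-DMa carry that uncertainty. For the beta chains, the ratio of H2-DMb1 to H2-Ob went from 2.09 and 3.86 in control pre-proB to 0.0709 and 0.101 in proB libraries and 0.0698 and 0.0782 in preB libraries. H2-Ob stood 8th of the 10 by mean FPKM in control pre-proB cells (27.5), 3rd in proB cells (58.5, overlapping H2-Aa at 58.0) and 2nd in preB cells (102), behind Cd74 at 329. H2-Ob ordered the groups as the summed B-lineage markers did, lowest in Erg-deficient pre-proB, then control pre-proB, proB and preB cells, and of the control pre-proB libraries the one with more B-lineage RNA also had more H2-Ob. The part of B-lineage RNA in this result was not tested.

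**Figure D2:**
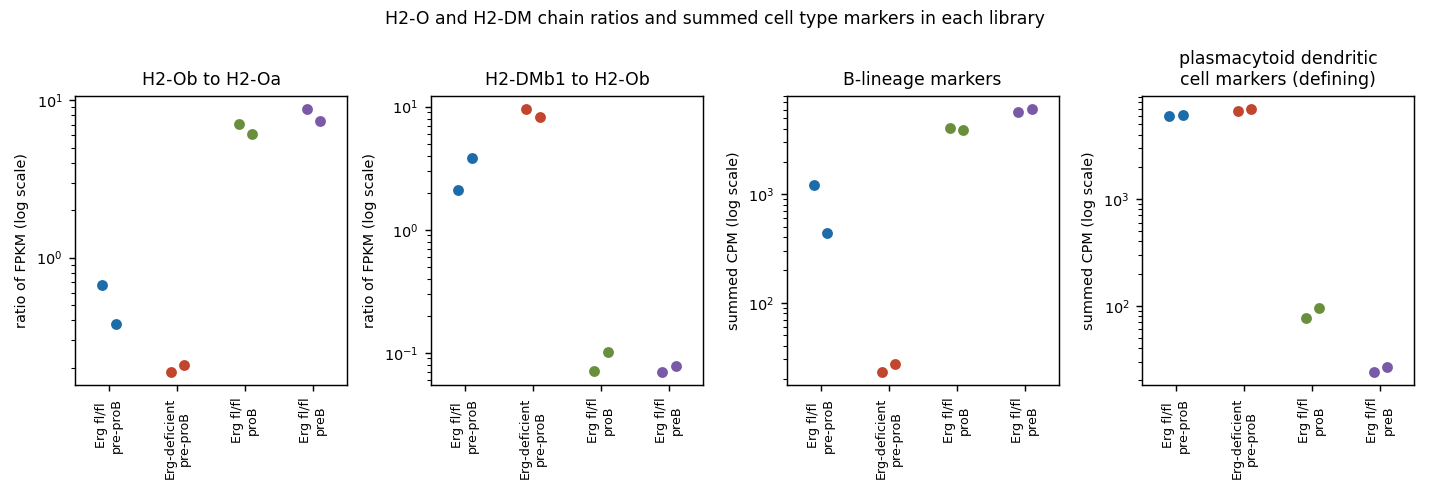
FPKM ratios of H2-Ob to H2-Oa and of H2-DMb1 to H2-Ob, and summed CPM of B-lineage and of defining plasmacytoid dendritic cell markers, all on log scales with 1 dot per library. The H2-Ob to H2-Oa ratio lies between 0.188 and 0.674 in the 4 pre-proB libraries and between 6.13 and 8.82 in the 4 proB and preB libraries.

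Across the 8 libraries the log2 CPM values of the 9 members other than H2-Ob had pairwise Pearson r of at least 0.74, and H2-Ob had r between -0.92 and -0.51 with them. These are descriptions over libraries that fall into 4 groups, with the pre-proB libraries far from the rest. The 5 genes most like the mean of H2-Aa, H2-Ab1, H2-Eb1 and Cd74, of 13805 compared, were Tenm3, Adipor2, Uhrf1bp1l, Itpripl2 and Tlr12 (r from 0.9979 to 0.9989 over 8 libraries). Tlr12, an endosomal Toll-like receptor, read 141 and 176 CPM in control pre-proB and 8.69 and 10 CPM in proB cells. The 5 most like H2-Ob were Tmc7, Zfp354b, Mgst1, Ighv1-52 and Eps8 (r from 0.9947 to 0.9964), but with a pseudocount of 2 CPM in place of 0.5 CPM, 0 of these 5 remained in the list, and 4 of the first 5 did.

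**Figure D3:**
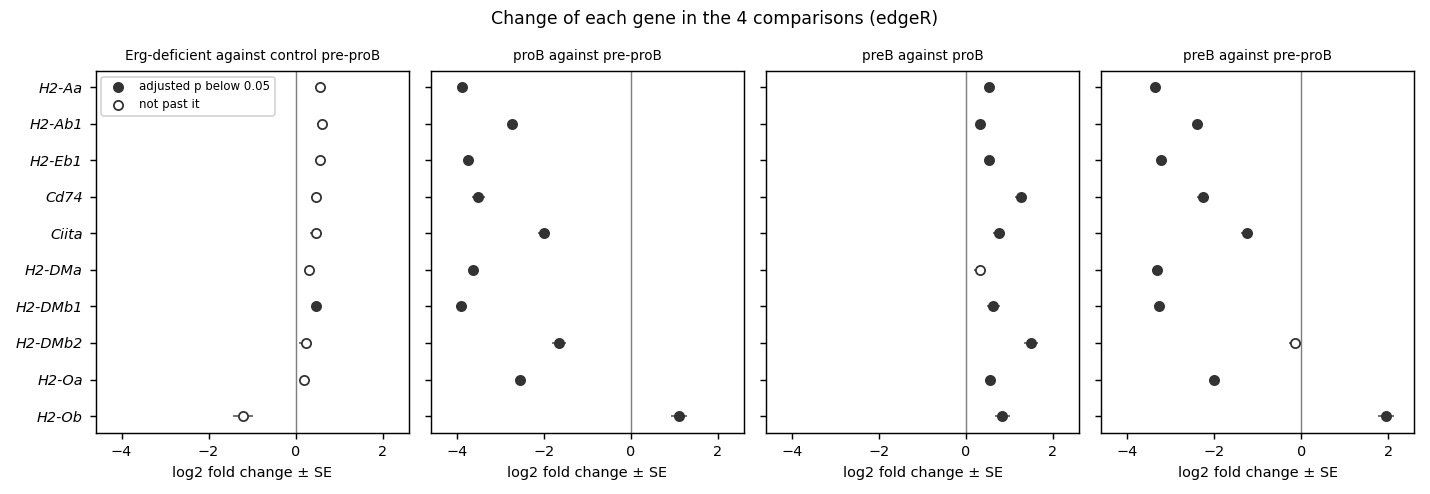
Log2 fold change of each gene (points, with the standard error as a bar) in the 4 comparisons, filled where the adjusted p was below 0.05. From pre-proB to proB cells 9 points lie between -3.90 and -1.65 and H2-Ob at 1.11, and in the comparison of Erg-deficient with control pre-proB cells H2-Ob lies at -1.21 and the others between 0.19 and 0.61.

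In Erg-deficient pre-proB cells 9 of the 10 genes lay 0.19 to 0.61 above the control pre-proB cells on the log2 scale, and H2-Ob lay 2.32-fold below them. H2-DMb1 was the 1 member called, and it was higher (151 and 145 CPM against 101 and 111 CPM, 1.39-fold, log2 0.47, SE 0.0711, adjusted p = 0.0403). Of the 13005 genes tested 1.16% were called, 0.215% higher and 0.946% lower. The other 9 members missed the threshold after adjustment, while 9 of the 10 had an unadjusted p below 0.05, as had 1624 of all genes. The median log2 fold change was 0.47 over the members and 0.01 over all genes. Both Erg-deficient libraries were above both controls for 8 members, which held for 23.3% of all genes, and below them for H2-Ob, which held for 21.9%. H2-DMb2 overlapped (27.0 and 20.7 CPM against 19.2 and 21.5 CPM).

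The largest log2 fold changes among the members that lay higher were those of H2-Aa, H2-Ab1 and H2-Eb1. H2-Aa read 1559.7 and 1330.2 CPM against 928 and 1036 CPM (log2 0.55, SE 0.102, adjusted p = 0.0683), H2-Ab1 987 and 808 CPM against 554 and 616 CPM (log2 0.61, SE 0.110, adjusted p = 0.0635) and H2-Eb1 687 and 582 CPM against 412 and 451 CPM (log2 0.55, SE 0.0969, adjusted p = 0.0588). Cd74 read 3434 and 2945 CPM against 2151 and 2442 CPM (log2 0.47, SE 0.109, adjusted p = 0.119) and was the 10th gene by CPM in Erg-deficient cells. In each of these genes replicate 1 was the higher of the Erg-deficient libraries. Ciita stood at 138 and 99.9 CPM against 83.8 and 87.8 CPM (adjusted p = 0.237), and H2-DMa (239.9 and 253 CPM) and H2-Oa (65.0 and 65.7 CPM) lay 0.31 and 0.19 above the controls on the log2 scale (adjusted p = 0.125 and 0.314).

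H2-Ob read 29.9 and 33.4 CPM in Erg-deficient against 91.9 and 54.8 CPM in control pre-proB cells (log2 -1.21, SE 0.227, adjusted p = 0.0721). The control libraries lay far apart and the Erg-deficient ones close together. The log2 difference was -0.80 without control replicate 1 (adjusted p = 0.00876) and -1.55 without control replicate 2 (adjusted p = 3.18e-05), each leaving a single control library whose spread is taken from the other group. The FPKM ratio of H2-Ob to H2-Oa in Erg-deficient cells was 0.188 and 0.207, and that of H2-DMb1 to H2-Ob 9.62 and 8.24. H2-Ob was 10th of the 10 members by FPKM there (11.9), next to H2-DMb2 at 16.8 and Ciita at 19.8, which overlapped each other. B-lineage RNA moved with these values, since 7 of the 8 B-lineage markers were called lower in Erg-deficient cells by edgeR (7 by DESeq2 and 0 by limma-voom). Its part in the difference was not tested.

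Whether the called value of H2-DMb1 passed the threshold depended on the fit. It was lost without control replicate 1 (adjusted p = 0.185), without Erg-deficient replicate 1 (adjusted p = 0.204) and without Erg-deficient replicate 2 (adjusted p = 0.165), with log2 values of 0.40 to 0.51. It was also lost with total counts as the scaling (adjusted p = 0.051) and with limma-voom (adjusted p = 0.0742), and kept in the other 8 of 13 alternatives. DESeq2 called 7 members, H2-Aa, H2-Ab1, H2-Eb1, Cd74, H2-DMa and H2-DMb1 as higher and H2-Ob as lower, and edgeR with all 8 libraries in 1 fit called 5.

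**Figure D4:**
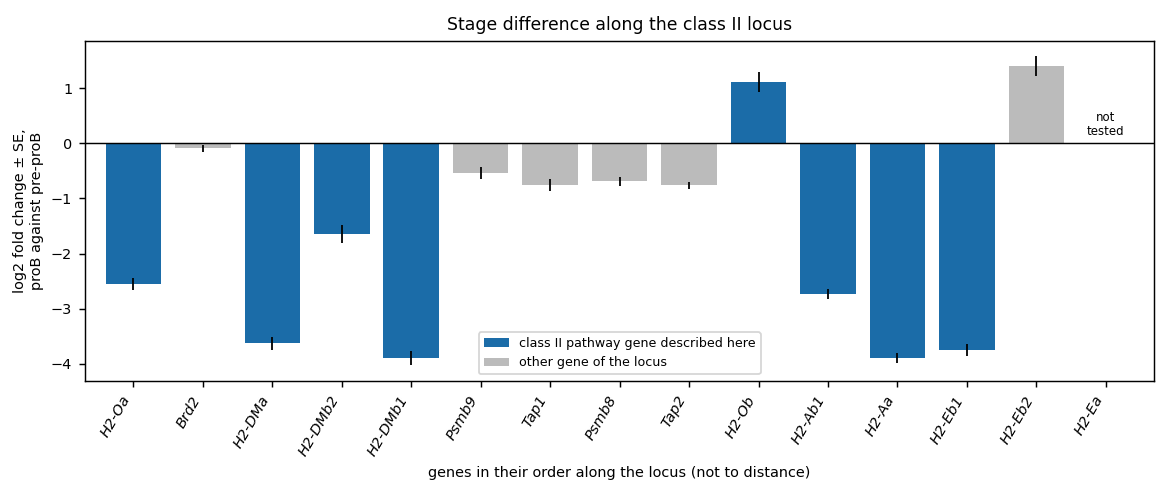
Log2 fold change from pre-proB to proB cells (bars, with the standard error) for the genes of the class II region in their order along chromosome 17, spaced evenly and not by distance. H2-Ob, at 1.11, and H2-Eb2, at 1.40, are above 0 among neighbours that lie between -3.90 and -0.09, and H2-Ea was too low to be tested.

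Along the locus the direction of the stage change broke at H2-Ob. Its nearest members are H2-Ab1, 17.3 kb further along the chromosome, which fell by 2.74 on the log2 scale, and, on the other side beyond Tap2 and its neighbours, H2-DMb1, which fell by 3.90. Psmb9, Tap1, Psmb8 and Tap2, class I processing genes that lie between H2-DMb1 and H2-Ob, fell by 0.54 to 0.76. Brd2, a bromodomain gene that overlaps H2-DMa, read 425 and 411 CPM in control pre-proB and 389 and 388 CPM in proB cells (log2 -0.09, adjusted p = 0.231). At the far end H2-Eb2, a class II beta chain gene at low level, was the other gene of the region that rose, from 2.91 and 2.59 CPM to 6.77 and 7.64 CPM (adjusted p = 0.000115). The window of H2-Eb2 also held the X1 and Y cores, 33 bases apart. H2-Ea, listed by RefSeq as a transcribed pseudogene, stayed between 0 and 0.311 CPM in all libraries.

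The endosomal enzymes that cut Cd74 and antigen were lower in proB cells too. All 11 genes of this list, which holds cathepsins, legumain, the thiol reductase Ifi30, the cathepsin inhibitor Cst3, Napsa and the Cd74-cleaving protease Sppl2a, were lower in proB than in pre-proB cells, with a median log2 fold change of -2.11. Ctss, the cathepsin that trims the invariant chain in B cells and dendritic cells, read 676 and 741 CPM in control pre-proB and 57.3 and 67.6 CPM in proB cells (log2 -3.49, adjusted p = 4.66e-08). Ctsl, its counterpart in thymic epithelium, read 916 and 974 CPM and then 18.2 and 21.4 CPM (log2 -5.56, adjusted p = 4.35e-09). From proB to preB cells 6 of the 11 rose and 2 fell. Ifi30, which reduces disulfides in endosomes, had the largest rise (34.4 and 38.1 to 92.1 and 119.9 CPM, log2 1.58, adjusted p = 2.85e-05), while Ctsl fell further, by 0.97. In Erg-deficient against control pre-proB cells 0 of the 11 were called by edgeR and 0 by limma-voom, 3 by DESeq2 and 3 at an unadjusted p below 0.05, with a median of 0.17.

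Genes that act on class II at the surface or beside it did not share 1 direction. Of 9 turnover and co-stimulation genes, 4 were higher and 4 lower in proB than in pre-proB cells. Marchf1, the ubiquitin ligase that removes class II from the surface, fell from 39.3 and 41.1 CPM to 2.75 and 3.92 CPM (log2 -3.57, adjusted p = 2.21e-06). Cd44, a partner of Cd74 in signalling, fell by 2.17 and Mif, the cytokine that binds Cd74, rose by 2.40 on the log2 scale (adjusted p = 2.04e-07 and 1.84e-07). Cd40, a co-stimulatory receptor, read 2.07 and 3.20 CPM in control pre-proB, 9.35 and 9.05 CPM in proB and 41.7 and 45.9 CPM in preB cells.

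The class I pathway showed smaller changes. Of 14 class I presentation genes, 11 were lower in proB than in pre-proB cells and 3 were not called, with a median log2 fold change of -0.74 beside -3.12 for the class II members. H2-K1, a classical class I heavy chain, read 1808 and 2018 CPM in control pre-proB and 953 and 1059 CPM in proB cells (log2 -0.91, adjusted p = 0.000107). Tapbp, which holds class I molecules at the peptide transporter, fell most, by 2.05 on the log2 scale. In Erg-deficient against control pre-proB cells 0 of the 14 were called by edgeR, DESeq2 or limma-voom, with 1 at an unadjusted p below 0.05.

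Several cell types outside the B lineage carry class II, and some of their markers differed between the stages. All 15 plasmacytoid dendritic cell genes of the list were lower in proB than in pre-proB cells, and the whole list summed to 13932 to 14735 CPM in control pre-proB, 16025 to 16128 CPM in Erg-deficient pre-proB, 1181 to 1224 CPM in proB and 2651 to 2685 CPM in preB cells. Spib, a gene of that list, read 802 and 718 CPM in proB and 2342 and 2363 CPM in preB cells. The 6 markers listed as defining conventional dendritic cells summed to 1108 to 1193 CPM in control pre-proB and 1231 to 1347 CPM in Erg-deficient pre-proB cells. In proB cells they summed to 13.7 to 19.0 CPM and in preB cells to 4.54 to 5.35 CPM. The control pre-proB sum came almost wholly from Clec10a, Itgax, Clec9a and Cd209a (means of 390.1, 365, 235 and 157 CPM). Whether conventional or plasmacytoid dendritic cells gave that RNA was not tested. Of the 6 markers, Xcr1 and Zbtb46 stood at only 0.583 to 2.23 CPM in the 4 pre-proB libraries. Itgax, which encodes CD11c, read 329 to 451 CPM there although the sort took CD11c-negative cells. Batf3, which is in the whole list, stood at 0.129 to 0.543 CPM in the pre-proB libraries and had 0 counts in both proB libraries. Their whole list of 13 genes, which includes Cd24a, a marker of the proB and preB gates, summed to 1979 to 2059 CPM in control pre-proB, 2199 to 2288 CPM in Erg-deficient pre-proB, 2193 to 2218 CPM in proB and 1885 to 2015 CPM in preB cells. The 6 defining monocyte and macrophage markers stayed between 14.4 and 73.6 CPM in all groups. Of the 10 tested genes of the whole monocyte and macrophage list, 4 were higher, 3 lower and 3 not called in proB against pre-proB cells. In Erg-deficient against control pre-proB cells 0 of 15, 0 of 12 and 0 of 10 tested genes of these 3 lists were called by edgeR and 0 by limma-voom, while DESeq2 called 1 in each, and 4, 5 and 2 had an unadjusted p below 0.05. The 4 defining markers of mature B cells, which also carry class II, rose from 155 and 161 CPM in proB to 491 and 544 CPM in preB cells. The 4 defining plasma cell markers summed to 240.3 to 246 CPM in proB and 57.7 to 61.5 CPM in preB cells, and the whole list of 9 to 1099 to 1154 CPM and 1187 to 1207 CPM. Of the NK cell list, whose marker NK1.1 was also used to leave out cells in the sort, 6 of 9 genes were called higher in Erg-deficient than in control pre-proB cells by edgeR, 8 by DESeq2 and 1 by limma-voom, with all 9 at an unadjusted p below 0.05. Their whole list summed to 32.8 to 39.0 CPM in control and 115 to 198 CPM in Erg-deficient pre-proB cells, and the 3 defining markers to 15.8 to 18.4 CPM and 45.3 to 80.7 CPM. The part of these cell types in the class II values was not tested.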

How the data were processed

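RNA from 8 libraries was analysed from the count table that the authors deposited, which holds whole-number counts of reads per Entrez Gene identifier without normalization. Per the labels and the study's methods, base calls came from CASAVA 1.8.2, adapters were trimmed with Trim Galore, reads were aligned to mm10 with STAR and counted with featureCounts and its built-in annotation. For the STAR version, the strand setting and the treatment of reads fitting more than 1 gene, nothing is given in the sources used here. RefSeq gave symbols for 25275 of 27179 identifiers. FPKM used exon lengths of coding transcripts from GENCODE M21.

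Groups were taken from the labels. The members and lists were chosen with earlier results of these data known. Genes reaching 0.5 CPM in 2 or more libraries were kept, TMM factors were computed, and edgeR 4.0.16 (quasi-likelihood, R 4.3.3) was fitted to the 4 pre-proB libraries and, separately, to the 6 Erg fl/fl libraries, with Benjamini-Hochberg adjustment and a threshold of 0.05. Alternatives used DESeq2 1.42.0, limma 3.58.1 (voom), other scalings, filters and sample sets. All 10 members are named in every comparison. Genes of the pathway lists are given by counts, with examples among those called, and others are named where a value sets the called ones in context, such as Spi1 and Cd40. The 5 genes most like a target were taken by Pearson r of log2(CPM + 0.5).

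Replicates of each group differed by 3.82 to 8.29 times the sampling noise (chi-square per degree of freedom), so none was a copy of another. On simulated counts for Erg-deficient against control pre-proB cells (12866 genes), 43 of 50 genes changed 1.5-fold and all 50 changed 2-fold were called, and 48 of 241 calls were genes left unchanged, above the nominal share. For proB against pre-proB cells (13351 genes) these were 39 of 50, 49 of 50 and 17 of 205. Protein sequences of the members were not analysed here.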

Additional observations from a re-analysis of the deposited data

How the results depend on the processing

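In the stage comparisons the number of members called stayed at 10 for proB against pre-proB and at 9 for preB against pre-proB under all 15 alternatives, and lay between 7 and 10 for preB against proB. The comparison of Erg-deficient with control pre-proB cells depended on the fit. Against 1 member called, 0 were called with total counts as the scaling (8 at an unadjusted p below 0.05) and 0 with limma-voom (9 unadjusted), 5 without a filter, 5 with all 8 libraries in 1 fit and 7 with DESeq2. Leaving out 1 library gave 0 to 5: 0 without either Erg-deficient replicate (8 and 9 unadjusted) and 5 without control replicate 2. The cause was not tested. The calls over all genes moved too, from 151 to 41 with limma-voom, 279 without a filter, 265 with the replicate block, 400 with DESeq2 and 442 with all libraries in 1 fit, and to between 10 and 401 without 1 library. Of 580 refitted log2 fold changes of single members, 546 kept direction and side of the threshold, 8 lost a call, 25 gained one and 1 changed sign: H2-DMb2 in preB against pre-proB cells, at 0.02 without preB replicate 1, -0.34 without preB replicate 2 and -0.14 with all libraries. In preB against proB cells H2-Ab1 lost its call without proB replicate 1 (adjusted p = 0.0982) or preB replicate 2 (adjusted p = 0.0643), H2-DMb1 without preB replicate 2 (adjusted p = 0.0601), and H2-DMa gained one in 6 of 15. Deviations of same-numbered libraries from their group means correlated at -0.035 to 0.151, which gave no clear pairing by number. Whether same-numbered libraries share a mouse is not stated. With the replicate block, 10, 10, 9 and 1 members were called in proB against pre-proB, preB against proB, preB against pre-proB and Erg-deficient against control cells.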
